A study of Mus musculus with 3 samples.

Results

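The endothelin system was examined through 6 genes, which were taken by name from the 24071 genes counted in each library: the ligand genes Edn1, Edn2 and Edn3, the receptor genes Ednra and Ednrb, and Ece1. Mouse retinas at P26 were dissociated and sequenced as 3′ tags of single cells, with 1 library for each of 3 groups. The first group was Tspan12 KO retinas from mice injected intraperitoneally with F4L5.13, an antibody that activates the FZD4 and LRP5 receptor pair, given as 10 mg/kg on days 6, 9 and 12 after birth and as 4 mg/kg at intervals of 3 days after that. The second was Tspan12 KO retinas, for which the labels give no agent, and the third was WT retinas. All 3 libraries carry the strain label Tspan12tm1.2Hjug, the WT library included. TSPAN12 is a co-receptor for Norrin in retinal endothelial cells. Photoreceptors and dying cells had been depleted with beads carrying anti-CD73 and Annexin V. The sources used here do not give how many mice or retinas went into a library. With 1 library per group, no difference between groups could be tested.

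Endothelins are short peptides cut from larger precursors, and endothelin-converting enzyme 1, the product of Ece1, makes the last cut. They act on G protein-coupled receptors: the product of Ednra prefers endothelin-1 and endothelin-2 and drives contraction of the muscle-like cells around vessels, whereas the product of Ednrb binds all endothelins and is found on endothelium, astrocytes and other glia. In injured mouse retina, photoreceptors are known to make Edn2, and the receptor EDNRB on Müller glia is known as one of its targets.

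The treated KO, KO and WT libraries held 8281, 9400 and 5785 cells after filtering, with a median of 7733, 6842 and 14230 reads per cell. The values behave as reads, not molecules, so all intervals below are 95% intervals on reads divided by 3.16, 2.76 and 2.73 in the 3 libraries, and they cover counting error only. Intervals for settings that reweight cells or clusters use rescaled counts instead. Levels are CPM, the reads of a gene scaled by all reads in the cells of a class in a library. Cell classes were named from marker genes, and their numbers differed between libraries: rods numbered 1966, 2510 and 208 and endothelial cells 42, 6 and 121 in the treated KO, KO and WT libraries, after a depletion aimed at photoreceptors. The libraries shared few cell barcodes, 23 kept ones between treated KO and KO, 12 between treated KO and WT and 12 between KO and WT. Tspan12 itself stood at 14.6, 17.7 and 27.3 CPM over all cells of the treated KO, KO and WT libraries, and since the deleted stretch is not given and 3′ tags may lie outside it, this is no check of the genotype.

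Each gene had its own set of cell classes. Edn1 and Edn3 reads of the WT library lay mainly in the endothelial class. Edn2 reads of both KO libraries lay mainly in rods, in barcodes left without a class name and in Müller glia. Ednra reads lay mainly in endothelial, mural and horizontal cells, and Ednrb reads in astrocytes, bipolar cells and Müller glia. Ece1 was found in most classes other than rods and astrocytes. Summed over all cells, Edn2 stood at 5.63 CPM in treated KO, 10.3 CPM in KO and 0.287 CPM in WT, while Ednrb stood at 35.8, 13.7 and 27.3 CPM in the same order. These sums move with the share of each class in a library, so the classes are described separately.

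**Figure D1:**
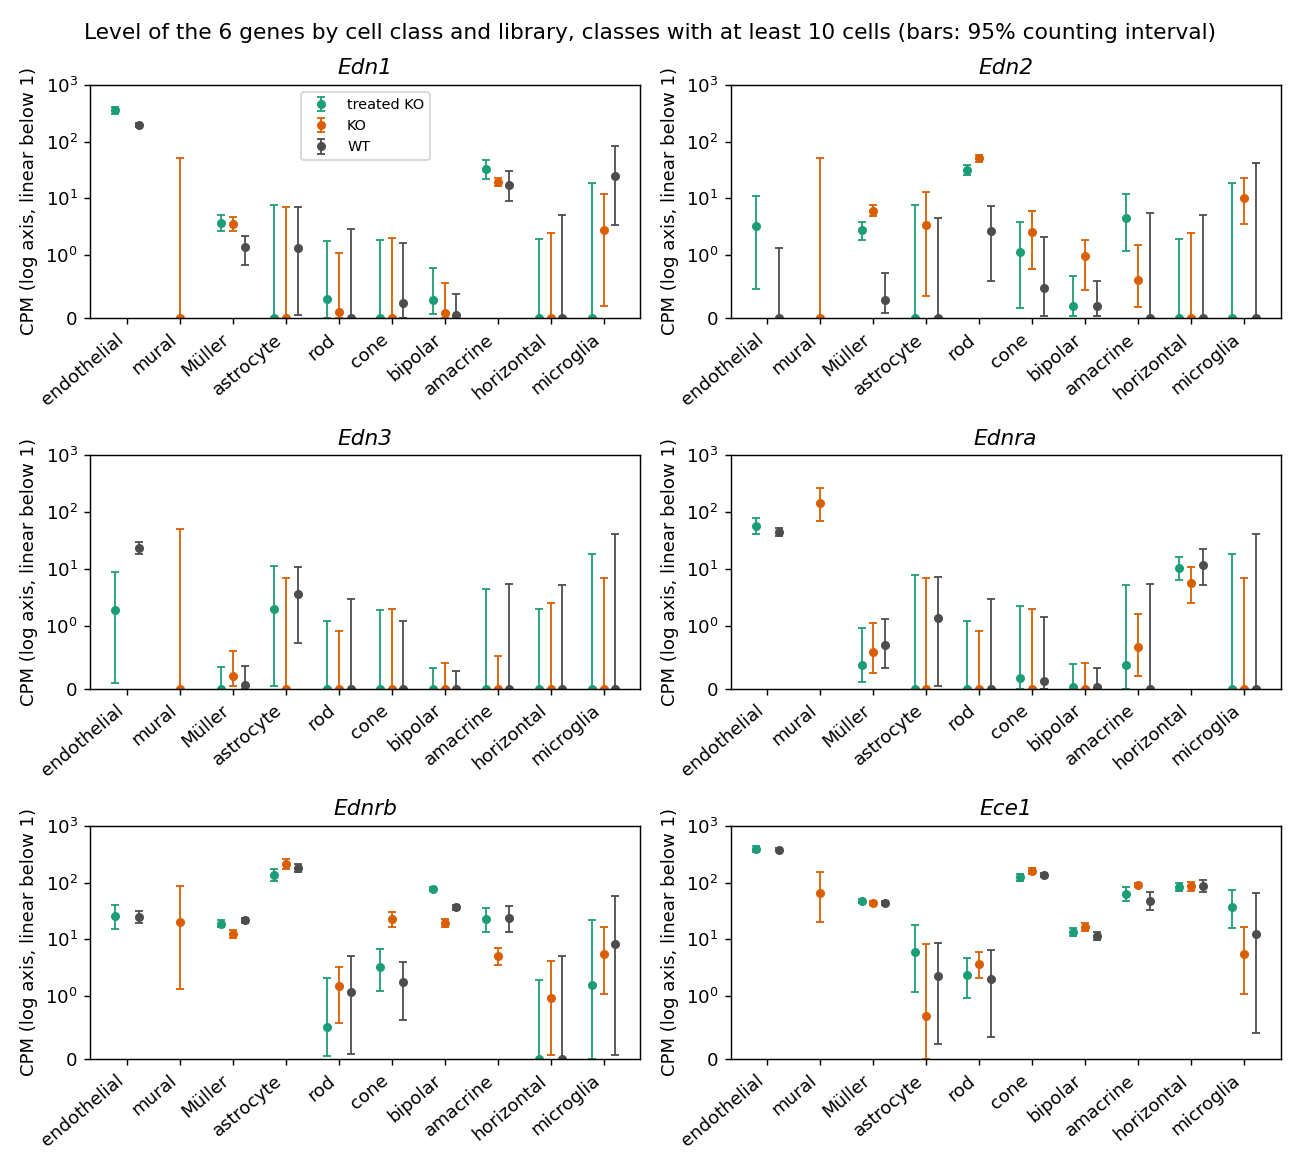
Level in CPM (log axis, linear below 1) of each of the 6 genes in cell classes with at least 10 cells in a library, for treated KO, KO and WT, with 95% counting intervals. Edn1, and Edn3 in WT, have their highest points in endothelial cells, Edn2 in rods of both KO libraries (32.2 and 50.6 CPM, against 2.62 CPM in WT) and Ednrb in astrocytes.

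Among the ligands, Edn2 differed most between the libraries. The gene lies on chromosome 4 at 120161206-120167360 on the plus strand (GRCm38, GENCODE M21). Its promoter is shown with those of Edn1, Edn3 and Ednrb because each of these 4 genes met the rule for a difference in at least 1 class. Each sequence is the stretch of 250 bases before the RefSeq start (GRCm38.p6), 5′ to 3′ on the strand of the gene, with motif matches in capitals. The Edn2 stretch is chr4:120160956-120161205 on the plus strand, the Edn1 stretch chr13:42301226-42301475 on the plus strand, the Edn3 stretch chr2:174760369-174760618 on the plus strand and the Ednrb stretch chr14:103843702-103843951 on the minus strand.

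Edn2: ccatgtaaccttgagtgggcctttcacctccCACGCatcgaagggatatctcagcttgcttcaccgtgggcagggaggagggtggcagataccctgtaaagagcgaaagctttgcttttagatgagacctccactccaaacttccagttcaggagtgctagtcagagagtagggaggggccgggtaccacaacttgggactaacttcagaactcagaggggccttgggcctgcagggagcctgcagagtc

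Edn1: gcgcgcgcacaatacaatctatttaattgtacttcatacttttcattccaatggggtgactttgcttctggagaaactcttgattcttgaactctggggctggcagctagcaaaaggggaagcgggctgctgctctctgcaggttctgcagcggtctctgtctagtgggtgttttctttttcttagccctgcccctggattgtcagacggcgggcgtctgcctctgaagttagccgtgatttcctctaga

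Edn3: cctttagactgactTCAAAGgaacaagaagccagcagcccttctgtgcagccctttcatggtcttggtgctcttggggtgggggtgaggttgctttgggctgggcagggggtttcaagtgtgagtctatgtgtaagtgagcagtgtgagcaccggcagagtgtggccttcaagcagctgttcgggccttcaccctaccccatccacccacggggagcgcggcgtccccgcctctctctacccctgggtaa

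Ednrb: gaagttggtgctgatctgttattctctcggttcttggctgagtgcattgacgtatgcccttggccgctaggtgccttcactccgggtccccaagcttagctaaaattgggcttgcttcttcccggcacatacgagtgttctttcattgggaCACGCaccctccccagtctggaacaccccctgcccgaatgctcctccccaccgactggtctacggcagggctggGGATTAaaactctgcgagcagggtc

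Searched on both strands, in windows that also held the first 50 bases after the start, were the hypoxia response cores ACGTG and GCGTG, the STAT motif TTCNNNGAA, the AP-1 motif TGANTCA, the CRX and OTX2 motif TAATCC and the TCF and LEF motif CTTTGA. Edn2 held GCGTG on the minus strand 219 bases before the start. The printed Edn1 stretch held none of these letters, and ACGTG lay on the minus strand 22 bases past its start. Edn3 held CTTTGA on the minus strand 236 bases before the start. Ednrb held GCGTG on the minus strand 99 bases before the start and TAATCC on the minus strand 25 bases before it, and a further GCGTG 32 bases past the start, outside the printed stretch. No printed matches overlap. Of 32851 promoters of the same length, 32.4% held GCGTG, 19.6% ACGTG, 16.0% CTTTGA, 8.30% TTCNNNGAA, 7.81% TGANTCA and 7.06% TAATCC, so each of these matches is common among promoters. They are descriptions of the letters and say nothing of a factor.

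In rods, the light-sensing cells of dim vision, Edn2 had 316 reads in 128 of 1966 treated KO cells, 563 reads in 287 of 2510 KO cells and 9 reads in 3 of 208 WT cells. This gave 32.2 CPM (26.2 to 39.2) in treated KO, 50.6 CPM (43.9 to 58.1) in KO, against 2.62 CPM (0.596 to 7.31) in WT. Both KO libraries lay above WT with intervals that did not overlap, and the treated KO library lay below the KO library. The KO over WT ratio was 19.3 (6.83 to 85.7) and the treated over WT ratio was 12.3 (4.28 to 55.1). Both met the rule used here for calling a difference, which asks for a ratio of at least 2, an interval bound beyond 1.5 and, in the library with more, 30 or more molecule equivalents (reads after that division). Edn2 was the only member with enough reads in rods for that rule in these comparisons, and 8.16% of 9376 genes were called higher in KO over WT and 4.22% of 8247 genes in treated over WT, the highest such shares among the classes compared. The treated over KO ratio of 0.637 (0.496 to 0.813) did not meet the rule.

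Rods of the libraries did not fall in the same clusters. Of the 208 WT rods, 160 lay in cluster 18, whose WT cells had a median of 17298 reads, whereas 1381 of the treated KO rods and 2046 of the KO rods lay in cluster 0, led by Zan and Nr2e3, with medians of 4829 and 4430 reads. In cluster 0 Edn2 stood at 45.7 CPM in treated KO, 57.5 CPM in KO and 17.1 CPM in 47 WT cells, the last from 6 reads in 2 cells. There the KO over WT ratio was 3.37 (0.970 to 24.3) and the treated over WT ratio 2.68 (0.760 to 19.5), so neither interval lay clear of 1. In cluster 18 the levels were 2.75 CPM in treated KO, 16.4 CPM in KO and 0.975 CPM in WT, from 5, 16 and 3 reads. With the cluster make-up of the libraries held equal, a setting added after the data were seen, the log2 ratio in rods was 2.48 (1.28 to 3.99) for KO over WT, against 4.27 over the whole class. For treated over WT it was 1.43 (0.15 to 3.01), against 3.62 over the whole class, and the call was lost by its bound. These 2 intervals use rates rescaled to class totals, so they do not reflect the few reads behind them. Most weight fell on cluster 18, where those reads were 5, 16 and 3. Over all genes in rods the median log2 ratio of KO over WT was 0.34, so the 2 libraries' rods also differed broadly. With each cell thinned to 5000 reads, 6.39% of 704 treated KO rods, 11.2% of 597 KO rods and 1.45% of 207 WT rods kept an Edn2 read. The unthinned shares were 6.51%, 11.4% and 1.44%. Bipolar cells, taken as a class that should lack Edn2, had a read in 0.239%, 0.900% and 0.200% of cells, at median depths of 13227, 11075 and 11616 reads against 4554, 4268 and 14528 reads in rods. The rod shares of both KO libraries were above this background.

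In Müller glia, the radial support cells of the retina, Edn2 had 93 reads in 42 of 1178 treated KO cells, 243 reads in 107 of 1309 KO cells and 11 reads in 7 of 1692 WT cells. The level was 2.72 CPM (1.83 to 3.90) in treated KO, 6.07 CPM (4.87 to 7.48) in KO, against 0.283 CPM (0.0777 to 0.723) in WT. The KO over WT ratio of 21.4 (8.11 to 79.9) met the rule, as did 2.61% of all 14185 genes in the upward direction. The treated over KO ratio of 0.448 (0.285 to 0.688) missed it by its bound, and the treated over WT ratio of 9.62 (3.39 to 37.4) rested on too few reads. In WT 5 cells held 81.8% of the reads, and without the 5 cells with most reads the log2 ratio of KO over WT was 6.59, against 4.42 with them. Thinned to 5000 reads per cell the log2 ratio was 4.43 (1.36 to 11.51), from too few reads for the rule. Under 5 of 13 settings the treated over KO ratio did meet the rule, at 0.355 with equal cluster make-up for one, and under 4 of 12 the treated over WT ratio did, at 12.2 with doublets kept in for one. The value of 0.355 met the rule on rates rescaled to class totals. Cluster 6, which weighs most in it, held 0 Edn2 reads in 87 treated KO cells.

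The Müller reads of Edn2 lay mainly in clusters that also held rod transcripts. Clusters 4 and 13, led by Gna14 and Aldh1a1, held summed reads of 10 rod markers at 18192 CPM in treated KO, 13998 CPM in KO and 25154 CPM in WT, and Edn2 there stood at 4.37, 9.62 and 0.472 CPM in the same order. The other 3 Müller clusters held the rod markers at 664, 680 and 544 CPM, and Edn2 at 0.660 CPM (0.144 to 1.88) in treated KO, 1.90 CPM (1.00 to 3.28) in KO, against 0.167 CPM (0.0114 to 0.723) in WT. Edn2 was thus lower in these clusters in each library and highest in KO, at a KO over WT ratio of 11.4 from too few reads for the rule. Per 1000 reads of rod markers, Edn2 had 0.558 reads in treated KO rods, 1.01 in KO rods and 0.0314 in WT rods. In the Müller class as a whole the same measure was 0.262 in treated KO, 0.771 in KO and 0.0285 in WT. It differed within the class: it was 0.240 in treated KO, 0.688 in KO and 0.0188 in WT in the clusters with many rod reads, and 0.994, 2.80 and 0.306 in the 3 clusters with few, the last from 10, 35 and 4 Edn2 reads. In bipolar cells it was 0.137, 0.874 and 0.0875. Among the other KO classes it was 0.669 in cones and reached 1.37 in amacrine cells and 1.64 in microglia, from 12 and 15 reads, and it was 7.41 in treated KO amacrine cells, from 12 reads in 2 cells. Cluster 13 met the marker rule for 8 of 12 Müller markers and also for 6 of 9 cone markers. Its medians were 51017, 44229 and 51343 reads in treated KO, KO and WT. Whether such deep barcodes hold more than 1 cell was not tested. How much of the Müller signal came from rod RNA was not tested either.

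**Figure D2:**
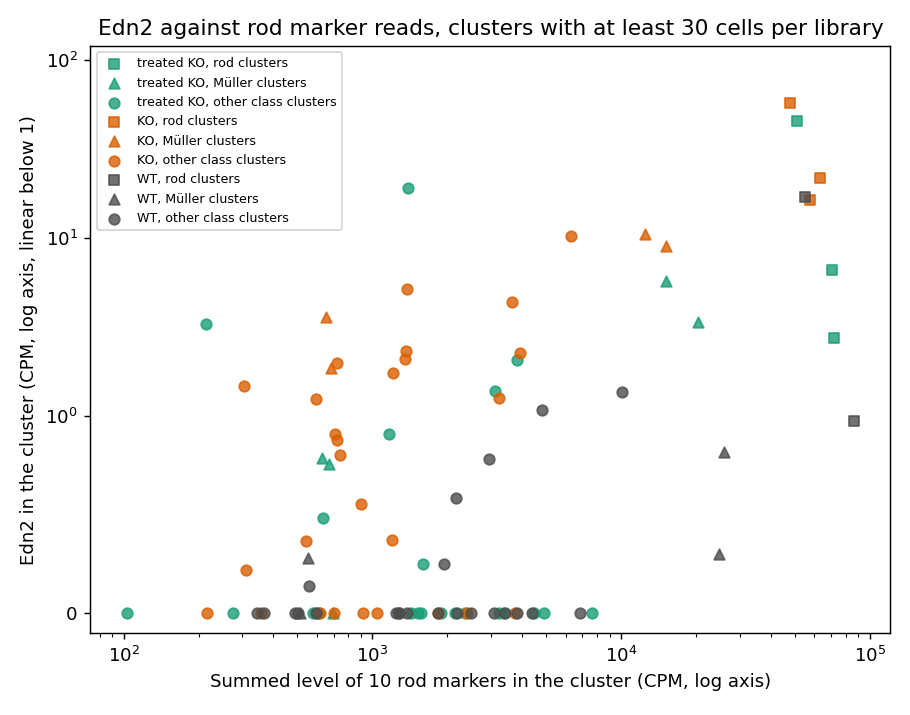
Edn2 level in CPM (log axis, linear below 1) against the summed level of 10 rod markers in CPM (log axis), 1 point per cluster and library with at least 30 cells, unnamed clusters left out. Squares are rod clusters, triangles Müller clusters and circles clusters of other classes. Rod clusters lie at the right, with KO cluster 0 highest at 57.5 CPM, and the Müller clusters fall into a group with many rod reads and a group with few.

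Edn1, the vasoconstrictor ligand of endothelium, lies on chromosome 13 at 42301476-42307990 on the plus strand. In endothelial cells it had 761 reads in 35 of 42 treated KO cells and 1528 reads in 103 of 121 WT cells. The level was 355 CPM (312 to 403) in treated KO and 198 CPM (182 to 215) in WT. The treated KO level was higher with no overlap of the intervals, but the ratio of 1.79 (1.53 to 2.09) was under the 2-fold rule, and 5 cells held 40.1% of the treated KO reads. The 6 KO endothelial cells, of a median 4479 reads, held 7 reads in 2 cells and allow no comparison. An antisense gene, Gm47118, overlaps Edn1, and since the strand of counting is not given, reads of the 2 cannot be told apart.

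Edn1 was also found outside vessels. In amacrine cells, interneurons that shape signals to the ganglion cells, the level was 33.5 CPM (22.2 to 48.4) in treated KO, 19.4 CPM (16.3 to 22.9) in KO, against 17.4 CPM (8.90 to 30.5) in WT. Most of it lay in amacrine cluster 26, led by Tmem114, Lpl and Mmp9, at 95.9 CPM in 31 treated KO cells, 78.1 CPM in 207 KO cells and 61.3 CPM in 25 WT cells. Within that cluster the ratio was 1.27 (0.694 to 2.58) for KO over WT, 1.23 (0.775 to 1.88) for treated over KO and 1.56 (0.753 to 3.46) for treated over WT, and every interval held 1. Amacrine cells held 70.8% of all KO Edn1 reads, whereas endothelial cells held 76.6% of those in treated KO and 93.7% of those in WT. These shares move with cell numbers. KO held 6 endothelial cells, and 1164 amacrine cells against 134 in treated KO and 114 in WT.

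In Müller glia Edn1 was low, and its calls were lost under many settings. It had 128 reads in 42 treated KO cells, 143 reads in 51 KO cells and 54 reads in 26 WT cells, which gave 3.75 CPM (2.68 to 5.09) in treated KO, 3.57 CPM (2.67 to 4.69) in KO, against 1.39 CPM (0.847 to 2.15) in WT. The ratio of 2.57 (1.51 to 4.56) for KO over WT met the rule only just, as did 2.61% of 14185 genes in the upward direction. The ratio of 2.70 (1.54 to 4.88) for treated over WT met it as well, where 0.739% of 13806 genes were called higher. Under settings run after these levels were seen, the KO over WT call was lost in 8 of 13 and the treated over WT call in 6 of 13. With classes taken by marker detection the ratios were 1.37 and 1.77, and with equal cluster make-up 1.79 and 2.54. Median depths were 24124, 27801 and 19432 reads in treated KO, KO and WT, and with each cell thinned to 5000 reads 1.19%, 0.772% and 0.768% of cells kept an Edn1 read. In each library 5 cells held 38.3%, 42.0% and 38.9% of the reads. The treated over KO ratio was 1.05 (0.677 to 1.61). Edn1 stood at 4.62, 3.32 and 1.42 CPM in treated KO, KO and WT in the Müller clusters with few rod reads, and at 3.05, 3.79 and 1.35 CPM in those with many.

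Edn3, a ligand best known from the neural crest, lies on chromosome 2 at 174760619-174784042 on the plus strand. It had 4 reads in 2 of 42 treated KO endothelial cells and 182 reads in 48 of 121 WT endothelial cells. The level was 1.87 CPM (0.0912 to 8.88) in treated KO and 23.6 CPM in WT, with a lower bound of 18.3, and the intervals did not overlap. Edn3 was thus 12.7-fold lower in treated KO, a ratio of 0.0790 (0.00380 to 0.390). It was the only member of 5 tested in endothelial cells that was called, where 0.685% of 9200 genes were called lower. Treated KO endothelial cells were few, and median depths were 48713 reads in treated KO and 61188 reads in WT. With each cell thinned to 5000 reads the log2 ratio was -2.20 (-18.03 to 2.13), from too few reads for the rule and with an interval that held 0. Without the 5 cells with most reads in each library, no treated KO read was left, and against a floor of 3 molecule equivalents the log2 ratio was at most -1.76 (-4.09 to -0.13), which missed the rule by its bound. With endothelial cells taken instead as barcodes with at least 8 of 12 endothelial markers, Edn3 stood at 1.78 CPM in 41 treated KO barcodes and 24.8 CPM in 130 WT barcodes. None of the 6 KO endothelial cells had an Edn3 read, and the few reads elsewhere, such as 8 in 3 KO Müller cells and 8 in 1 WT astrocyte, left the other classes near 0.

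**Figure D3:**
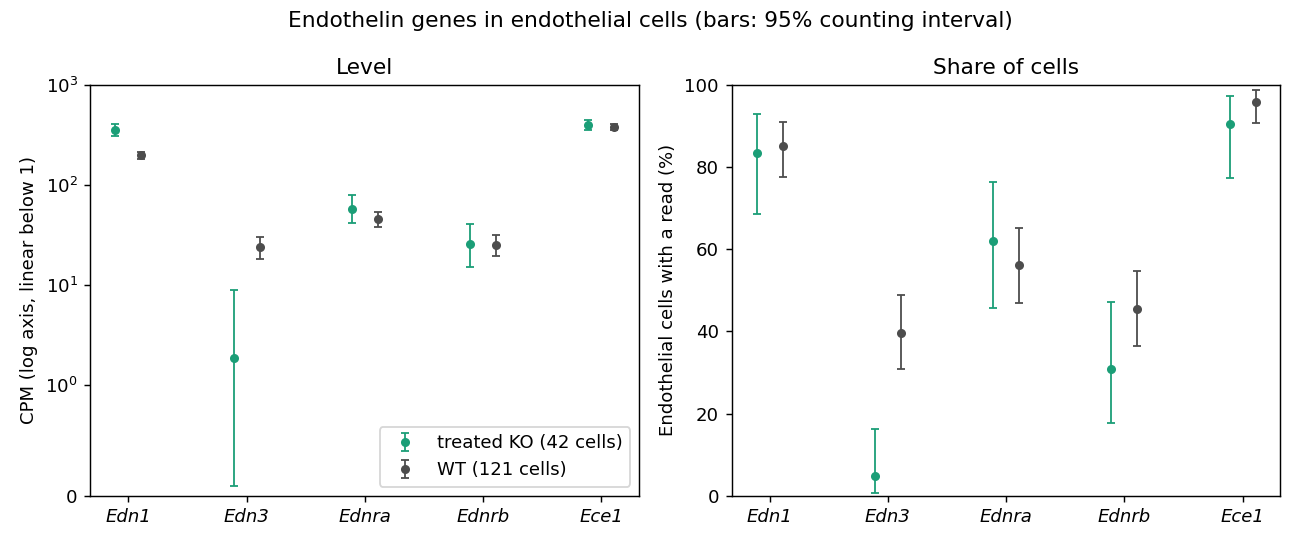
Level in CPM (left, log axis, linear below 1) and share of cells with a read (right, percent) of Edn1, Edn3, Ednra, Ednrb and Ece1 in 42 treated KO and 121 WT endothelial cells, with 95% counting intervals. Edn3 stands at 1.87 CPM in treated KO and 23.6 CPM in WT, Edn1 is higher in treated KO, and the intervals of Ednra, Ednrb and Ece1 overlap.

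Of the receptors, Ednra lies on chromosome 8 at 77663031-77724464 on the minus strand. In the endothelial class it had 124 reads in 26 of 42 treated KO cells and 347 reads in 68 of 121 WT cells, or 57.8 CPM (41.2 to 79.0) and 45.0 CPM (37.5 to 53.6). The ratio of 1.28 (0.874 to 1.85) did not meet the rule. All 26 treated KO cells and all 68 WT cells with an Ednra read also had reads of the pericyte genes Pdgfrb and Rgs5. Of the cells without an Ednra read, 5 of 16 in treated KO and 22 of 53 in WT had Pdgfrb, and 6 and 40 had Rgs5. Such overlap was not particular to Ednra. Of 48 WT cells with an Edn3 read, 45 had Pdgfrb and 48 had Rgs5. Of 103 WT cells with an Edn1 read, 82 had Pdgfrb and 96 had Rgs5. The 12 pericyte and muscle markers together reached 8366 CPM in treated KO and 6694 CPM in WT endothelial cells, each of them with reads. Cells with an Ednra read were also deeper, with medians of 74072 reads in treated KO and 79417 reads in WT, against 13748 and 33315 reads in those without.

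In the few mural cells, the pericytes and smooth muscle of the vessel wall, Ednra stood at 89.3 CPM in 5 treated KO cells, 145 CPM in 12 KO cells and 153 CPM in 6 WT cells, from 8, 29 and 15 reads. These cells are too few for a ratio. Horizontal cells, interneurons at the photoreceptor synapse, had 10.4 CPM (6.29 to 16.1) in treated KO, 5.56 CPM (2.45 to 10.8) in KO, against 11.7 CPM (5.19 to 22.7) in WT, and all these intervals overlapped. Müller glia had 0.381, 0.575 and 0.695 CPM, near the limit of detection. The gene 4933431K23Rik overlaps Ednra on the other strand, so its reads could be counted with it.

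Ednrb lies on chromosome 14 at 103814625-103844402 on the minus strand, and the RefSeq start used for its promoter lies inside that span. Over classes with at least 10 cells in a library its highest level was in astrocytes, the glia of the nerve fibre layer. There it had 206 reads in 19 of 22 treated KO cells, 313 reads in 25 of 25 KO cells and 407 reads in 42 of 46 WT cells, or 136 CPM (105 to 173), 214 CPM (177 to 258) and 184 CPM (155 to 216). KO and WT overlapped, and treated KO lay below KO with intervals that only just parted. In treated KO, KO and WT 5 cells held 52.9%, 43.1% and 27.3% of the reads, and the intervals do not cover such gathering in few cells. There were too few astrocytes for a ratio under the rule.

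In bipolar cells, which carry signals from photoreceptors to the inner retina, Ednrb was highest in treated KO. It had 2760 reads in 557 of 2089 treated KO cells, 492 reads in 180 of 1667 KO cells and 1355 reads in 441 of 2506 WT cells. The level was 77.5 CPM (72.4 to 82.8) in treated KO, 19.4 CPM (16.7 to 22.5) in KO, against 36.4 CPM (33.3 to 39.8) in WT, and no intervals overlapped. The treated over KO ratio of 3.99 (3.39 to 4.71) was called, as were 0.864% of 13543 genes in that direction. The treated over WT ratio of 2.13 (1.90 to 2.38) was called as well, where 0.151% of 13872 genes were called higher. That call was lost at a ratio of 1.91 as a mean of per-cell CPM and 1.98 with equal cluster make-up, whereas treated over KO kept its call under all 11 settings run. The KO over WT ratio of 0.533 (0.447 to 0.634) lay just short of 2-fold. Thinned to 5000 reads, 17.8% of treated KO, 5.52% of KO and 10.4% of WT bipolar cells kept a read, the same order.

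KO lay below WT in 11 of 11 bipolar clusters with enough reads, at ratios of 0.414 to 0.728, with 3 intervals clear of 1. Treated KO lay above KO in 11 of 11, at ratios of 2.03 to 7.18, with 9 intervals clear of 1. Treated KO lay above WT in 9 of 10 clusters, at ratios of 0.936 to 3.74 over the 10, with 7 intervals clear of 1. Cluster 35, led by Lrrtm1, had too few reads for a ratio and its highest level in KO, with 21.7 CPM in treated KO, 56.2 CPM in KO and 12.4 CPM in WT, from 14, 17 and 10 reads. In treated KO the highest level, above that of astrocytes, was in cluster 11, led by Cck and Cdc25c. That cluster stood at 238 CPM (200 to 281) in treated KO, 47.2 CPM (28.4 to 73.9) in KO, against 98.2 CPM (76.9 to 124) in WT. In KO and WT it lay below astrocytes, and cluster 19 was the highest bipolar cluster. Cluster 12, led by Igfn1, stood at 157, 34.5 and 54.1 CPM in treated KO, KO and WT. In cluster 19, led by Areg and Slitrk5, the levels were 169, 78.4 and 134 CPM, and in cluster 20, led by Rbp4, 74.0, 36.5 and 79.1 CPM, so that treated KO and WT overlapped in these 2.

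Ednrb was near 0 in the cluster led by Sebox and Prkca, genes of rod bipolar cells, with 2 reads in 681 treated KO cells, 0 in 561 KO cells and 6 in 638 WT cells. It was also near 0 in cluster 15, led by Otor, with 0, 1 and 0 reads, and in cluster 31, led by Irx6 and Erbb4, with 0, 0 and 2 reads. Other clusters with these same leading genes did hold Ednrb and were deeper: cluster 23, led by Otor, stood at 96.5, 13.4 and 25.8 CPM in treated KO, KO and WT at medians of 24821, 19450 and 20538 reads, against 8992, 6897 and 8157 reads in cluster 15. Cluster 16, led by Erbb4 and Irx6, stood at 94.0, 17.8 and 38.8 CPM at medians of 31023, 26941 and 23433 reads. Whether such deep clusters hold more than 1 cell per barcode was not tested. Clusters 11, 12, 19 and 20 had medians of at most 13938 reads.

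**Figure D4:**
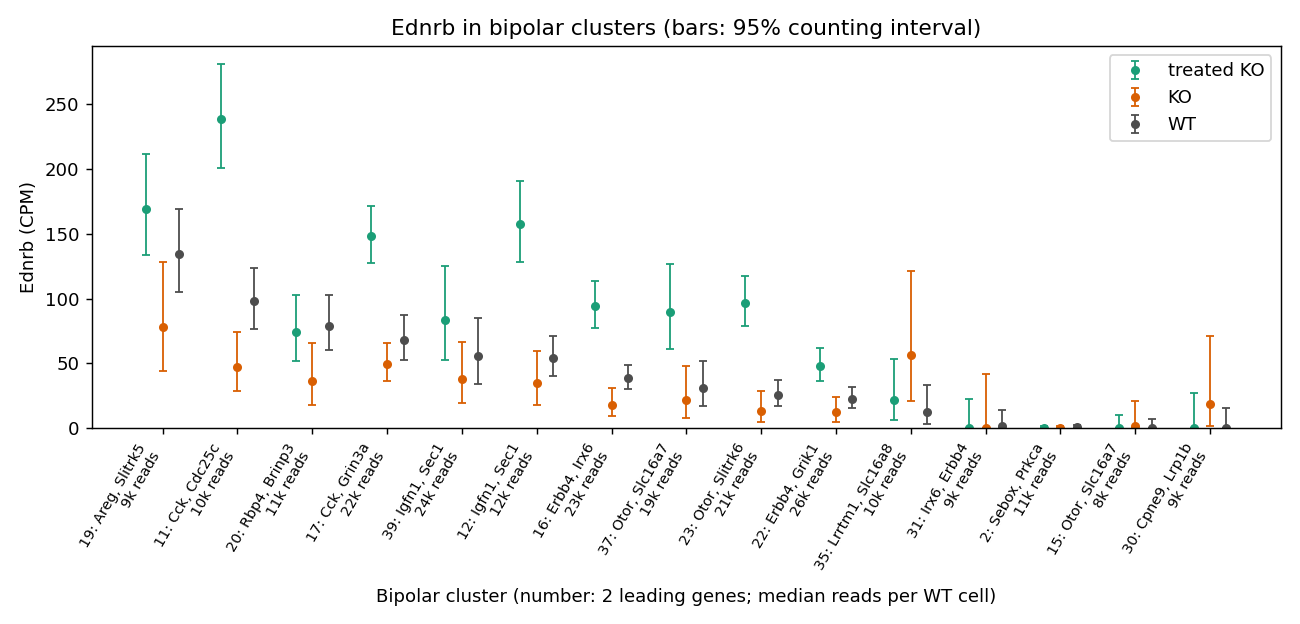
Ednrb level in CPM for each bipolar cluster with at least 25 cells in every library, ordered by the WT level, with 95% counting intervals; labels give 2 leading genes and the median reads per WT cell. Treated KO lies above KO in each of the 10 clusters at the left, from 238 CPM against 47.2 CPM in cluster 11 to 47.8 CPM against 12.2 CPM in cluster 22, and the Sebox cluster lies near 0.

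In Müller glia Ednrb had 644 reads in 236 treated KO cells, 500 reads in 175 KO cells and 842 reads in 347 WT cells. The level was 18.9 CPM (16.4 to 21.6) in treated KO, 12.5 CPM (10.7 to 14.5) in KO, against 21.7 CPM (19.3 to 24.2) in WT. KO lay below both other libraries with no overlap of the intervals, though no ratio of the summed reads reached 2-fold. The KO over WT ratio was 0.577 on the summed reads, but 0.481 as a mean of per-cell CPM and 0.361 with equal cluster make-up. Both of these met the rule, but on rates rescaled to class totals, not on the reads behind them. Equal make-up gave most weight to clusters 3 and 9, with 722 and 520 WT cells. There KO held 7 Ednrb reads in 34 cells and 0 in 11 cells. For treated over KO the ratio was 1.51 on the summed reads and 1.94 as a mean of per-cell CPM. With equal cluster make-up it was 2.26, which met the rule on such rescaled rates. In the 3 clusters with few rod reads the ratios of 0.364 for KO over WT and 2.64 for treated over KO met the rule as well, at 20.0 CPM (16.2 to 24.4) in treated KO, 7.56 CPM (5.62 to 9.95) in KO, against 20.8 CPM (17.9 to 24.0) in WT. In the 2 with many rod reads it was 18.0, 16.7 and 23.1 CPM. The libraries differ in which clusters they fill: cluster 6, led by the hypoxia genes Ndufa4l2, Apln and Adm, held 688 KO cells but 87 treated KO and 24 WT cells, and there Ednrb stood at 32.7 CPM (20.3 to 49.9) in treated KO, 7.61 CPM (5.61 to 10.1) in KO, against 37.9 CPM (15.2 to 78.2) in WT. Treated over KO in that cluster was 4.30 (2.45 to 7.31) and KO over WT was 0.201 (0.0901 to 0.528).

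Amacrine Ednrb also lay lowest in KO. It had 59 reads in 15 of 134 treated KO cells, 99 reads in 37 of 1164 KO cells and 43 reads in 13 of 114 WT cells, or 22.4 CPM (13.4 to 35.2), 4.99 CPM (3.49 to 6.92) and 23.4 CPM (13.3 to 38.1). The KO over WT ratio of 0.214 (0.115 to 0.415) was called, as were 0.733% of 12551 genes in the downward direction, and the treated over KO ratio of 4.49 (2.42 to 8.07) was called, as were 0.598% of 12550 genes in the upward direction. Each call was lost under 4 of 11 settings, for too few reads. Without the 5 cells with most reads in each library the ratios were 0.374 and 2.40, with intervals that held 1, and in treated KO and WT those 5 cells held 64.4% and 62.8% of the reads. These reads sat in cluster 26, the same amacrine cluster that held Edn1. Within it Ednrb stood at 68.2 CPM (40.8 to 107) in treated KO, 19.1 CPM (13.1 to 27.1) in KO, against 79.1 CPM (44.0 to 131) in WT. The ratio there was 0.242 (0.126 to 0.485) for KO over WT and 3.56 (1.90 to 6.51) for treated over KO.

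Cones, the photoreceptors of colour vision, showed the other order. Ednrb had 20 reads in 7 of 497 treated KO cones, 116 reads in 32 of 468 KO cones and 15 reads in 8 of 674 WT cones, or 3.20 CPM (1.21 to 6.83), 22.5 CPM (16.2 to 30.4) and 1.77 CPM (0.615 to 3.99). The KO over WT ratio of 12.7 (5.20 to 38.6) was called, as were 0.654% of 8712 genes in the upward direction. The treated over KO ratio of 0.142 (0.0510 to 0.330) was called, as were 1.36% of 7717 genes in the downward direction. With doublets kept in, the ratios were 4.06 and 0.364, still called. Without the 5 cells with most reads, and thinned to 5000 reads, too few reads were left for the rule. Most of it lay in the cluster led by Opn1sw, the short-wavelength opsin, where 13 reads fell in 4 of 172 treated KO cells, 98 in 25 of 265 KO cells and 12 in 5 of 346 WT cells. In the cluster led by Opn1mw, the middle-wavelength opsin, Ednrb stood at 1.46, 2.19 and 0.809 CPM in treated KO, KO and WT. Müller markers in the Opn1sw cluster summed to 410, 590 and 467 CPM in treated KO, KO and WT, and 5 cells held 44.8% of the KO cone reads of Ednrb.

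**Figure D5:**
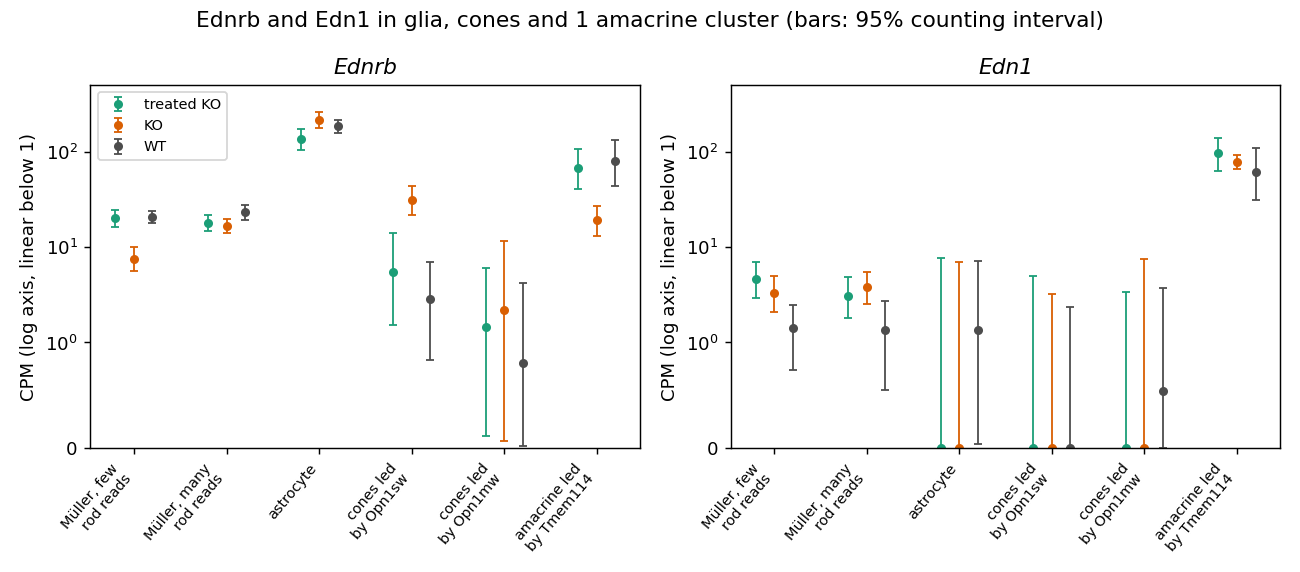
Levels in CPM (log axis, linear below 1) of Ednrb (left) and Edn1 (right) in Müller clusters with few and with many rod reads, astrocytes, 2 cone clusters and amacrine cluster 26, with 95% counting intervals. Ednrb is lowest in KO in Müller clusters with few rod reads (7.56 CPM, against 20.8 CPM in WT) and in the amacrine cluster, and highest in KO in cones led by Opn1sw (31.4 CPM).

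In endothelial cells Ednrb stood at 25.7 CPM (15.0 to 40.9) in treated KO and 24.8 CPM (19.3 to 31.3) in WT, a ratio of 1.04 (0.575 to 1.77). Rods had 0.510, 1.53 and 1.16 CPM in treated KO, KO and WT, from 5, 17 and 4 reads.

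Ece1, the converting enzyme, lies on chromosome 4 at 137862237-137965229 on the plus strand, and it met the rule in none of the 14 comparisons where it had enough reads; over all 17 comparisons 0.512% to 8.51% of genes were called in either direction. In endothelial cells it had 857 reads in 38 of 42 treated KO cells and 2923 reads in 116 of 121 WT cells, or 399.7 CPM (354 to 450.2) and 379 CPM (357 to 403), a ratio of 1.05 (0.919 to 1.21). Cones had 124 CPM (109 to 140.4) in treated KO, 162 CPM (144 to 182) in KO, against 137 CPM (124 to 150.2) in WT. Horizontal cells had 82.6, 86.5 and 87.5 CPM, and Müller glia 48.1, 43.7 and 43.9 CPM, with overlapping intervals in both classes.

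Amacrine Ece1 was highest in KO. The level was 63.1 CPM (47.2 to 82.7) in treated KO, 91.7 CPM (84.8 to 99.0) in KO, against 47.8 CPM (32.7 to 67.4) in WT, and the KO over WT ratio was 1.92 (1.35 to 2.82), short of 2-fold. KO held 1164 amacrine cells against 134 in treated KO and 114 in WT, and within the 3 amacrine clusters with enough reads the KO over WT ratio ranged from 1.06 to 3.56, with 1 interval clear of 1. Rods and astrocytes, which differ widely in Edn2 and Ednrb, held little Ece1, at 2.35, 3.69 and 2.04 CPM in rods and 5.94, 0.685 and 2.26 CPM in astrocytes of treated KO, KO and WT. The astrocyte values came from 9, 1 and 5 reads and the WT rod value from 7 reads. All of these lay below the floor of 3 molecule equivalents, so they are not compared. An antisense gene, Gm13012, overlaps Ece1.

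Lists of genes that work with endothelins were read beside the members in Müller glia, KO over WT, where the median log2 ratio of all genes was -0.003. Of the genes that process or remove endothelins, 6 of 8 were in the tables and 0 of the 4 tested were called, against 4.62% of all genes in either direction. Of 18 genes of receptor signalling, all tested, 1 was called lower, as were 2.01% of all genes, and 0 higher, and their median log2 ratio was -0.03. The lower gene was Plcb1, a phospholipase C acted on by Gq, at 6.62 CPM in treated KO, 3.10 CPM in KO and 8.03 CPM in WT.

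Of 12 genes of the glial response to photoreceptor injury, 4 were called higher and 0 lower, against 2.61% of 14185 genes called higher, with a median log2 ratio of 0.53. In treated over KO 1 of the 12 was called higher and 1 lower, against 1.4% and 1.69% of 13894 genes. The lower one was Gfap, and the higher one is not among the genes named here. The 4 called higher in KO over WT were Gfap, Osmr, Lif and Stat3. Gfap, the glial filament, stood at 62.1 CPM in treated KO, 243 CPM in KO and 16.5 CPM in WT. Osmr, the oncostatin M receptor, stood at 42.9, 73.3 and 23.5 CPM in the same order. Lif, a cytokine of this response, stood at 4.63, 4.77 and 1.57 CPM, and Stat3, its transcription factor, at 90.6, 125 and 52.0 CPM. All 5 hypoxia genes set beside them were called higher, against the same 2.61%, with a median log2 ratio of 3.44, and in treated over KO 4 of the 5 were called lower, against 1.69% of 13894 genes. Of those, Adm, an adrenomedullin gene, stood at 13.7 CPM in treated KO, 130.1 CPM in KO and 2.27 CPM in WT. The lists were chosen with earlier results of these data known. Ndufa4l2, Apln and Adm of the hypoxia list also lead Müller cluster 6, which was filled mainly by KO cells. The counts for that list are therefore descriptions and are not independent of these data.

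Genes whose level followed each member most closely were ranked by Pearson's r of log2(CPM + 1) over 19 class sums, which share libraries and depth, among 17233 genes. For Edn2 the nearest was Zan (r = 0.916), for Ednrb the gene model Gm43508 (0.884) and for Ece1 Nav1 (0.911). The 19 sums hold 1 endothelial point, that of WT, and no mural one, so no nearest gene is given for Edn1, Edn3 and Ednra.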

How the data were processed

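Libraries were made with the 10x Chromium 3′ v3 kit, per the labels' protocols. The submitters' processing notes name Partek 9.0 and the build mm10. The step that used each, the strand of counting and any collapse of reads to molecules are not given in the sources used here. The deposited tables hold unscaled estimated counts for each gene in each barcode, a unit read from the values, and they were rounded to whole numbers. In genes seen in few barcodes only 50.1%, 54.7% and 55.2% of nonzero values up to 10 were 1 in treated KO, KO and WT, so values were treated as reads and divided by the mean read weight per molecule for every interval and minimum.

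Barcodes with under 500 genes or over 20% mitochondrial reads were left out, and the barcodes most like simulated doublets were removed, to 7.13%, 8.19% and 4.86% of the barcodes passing those filters. Leiden clustering (igraph 0.11.9, leidenalg 0.10.2, resolution 1) gave 50 clusters. A cluster was named when at least 3 markers of a class were at least 2-fold higher and found in at least 20% of its cells; 6 clusters stayed unnamed, among them shallow ones with rod markers. The finer points of naming were set after the clusters were seen. CPM has exact Poisson intervals, shares Clopper-Pearson intervals and ratios exact conditional binomial intervals (scipy 1.17.1). Ratios needed 50 cells per library, except in endothelial cells. A count of 0 is read against a floor of 3 molecule equivalents. With 1 library per group no test was made.

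Besides the 6 members, the text names up to 5 called genes per list by size of the Müller KO over WT ratio and the genes nearest to each member. The members, lists and classes were chosen with earlier results of these data known. The interval and the call rule were tested on simulated class sums with Poisson molecule counts, close to the model that the intervals assume. That check does not cover reads gathered in few cells or differences between animals. Positions are from GENCODE M21, promoters from RefSeq.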

Additional observations from a re-analysis of the deposited data

Results flagged for a closer look

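The direction of Ednrb differed between cell classes. The log2 ratio of KO over WT was 3.66 in cones and -2.23 in amacrine cells, and both met the call rule. So did 0.654% of 8712 genes upward in cones and 0.733% of 12551 genes downward in amacrine cells. For treated over KO it was -2.81 in cones, 1.996 in bipolar cells and 2.17 in amacrine cells. The cone calls were lost under 2 of 11 settings and the amacrine calls under 4 of 11, for too few reads. Without the 5 cells with most reads in each library, the amacrine intervals held 1. The difference between classes was not tested, since each library is 1 sample.

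Edn2 also appeared in barcodes left without a class name, at 17.5 CPM in treated KO and 48.3 CPM in KO, against 0 reads in 366 WT barcodes. Cluster 1, which carries rod markers but none among its 10 leading genes, held 36.7 CPM in treated KO and 66.1 CPM in KO, and cluster 8 held 20.0 and 89.6 CPM. These clusters have medians of 2194 to 2502 reads per barcode in treated KO, and the unnamed WT barcodes are mostly of other clusters, so they are no like comparison.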

How the results depend on the processing

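Across 251 alternatives, 233 kept their value within the counting interval, 18 moved and 0 of the values whose interval lay clear of 1 changed sign. The call itself changed in 51. Of the settings, rods, bipolar cells, cones, amacrine cells, endothelial Edn3, Müller Edn1, the rod-read limit for Müller clusters, equal cluster make-up and the unnamed rod clusters were chosen after seeing the data. All values here are log2 ratios. With equal make-up and with means of per-cell CPM, the intervals and the read minimum use rates rescaled to class totals, not the reads behind them. In Müller glia, Edn2 without the 5 cells with most reads was 6.59 for KO over WT and 5.26 for treated over WT, and thinned to equal reads it was -2.09 for treated over KO. Ednrb KO over WT in Müller glia was -1.06 as a mean of per-cell CPM, -1.46 without the clusters led by rod or cone markers, -1.46 without those with many rod reads (the same clusters) and -1.47 with equal cluster make-up. Ednrb treated over KO in Müller glia was 0.96 as a mean of per-cell CPM, 1.40 under both cluster exclusions and 1.18 with equal make-up. Edn2 in rods with equal make-up was 2.48 for KO over WT and 1.43 for treated over WT, and Ednrb in bipolar cells was 1.67 for treated over KO. Edn1 KO over WT in Müller glia was 0.46 with classes by marker detection. Ednrb in cones with doublets kept in was 2.02 for KO over WT and -1.46 for treated over KO, and without the 5 cells with most reads -5.27 for treated over KO. Ednrb in amacrine cells without those cells was 1.26 for treated over KO. The cause of these moves was not tested, apart from the changed cluster make-up itself. Edn2 treated over WT in Müller glia gave no value after thinning. No paired analysis was possible because each group has 1 library and the libraries share only replicate number 1. Few cells limit endothelial, mural and astrocyte values, and no interval covers differences between animals.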

Other observations

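The same gene lists, chosen with earlier results of these data known, were read in rods and bipolar cells. In rods, KO over WT, 3 of the 6 injury genes with enough reads were called higher and 0 lower, with a median log2 ratio of 1.39, and 2 of 2 hypoxia genes were called higher, where 8.16% of all genes were called higher and their median log2 ratio was 0.34. Rod clusters also held Müller transcripts, and more of them in KO. Müller markers summed to 339 CPM in KO and 190 CPM in WT in cluster 0, and to 6877 and 571 CPM in cluster 18. How much of the rod values of these lists came from Müller RNA was not tested. Of 13 receptor signalling genes in rods, 1 was called higher and 0 lower. In bipolar cells, treated over KO, where Ednrb was called higher, 0 of 16 receptor signalling genes were called in either direction and their median log2 ratio was 0.01, against -0.01 for all genes. After Zan, the genes nearest to Edn2 over the class sums were Lrrc2 (r = 0.904) and Gm15513 (0.899), and both Zan and Lrrc2 are among the 10 leading genes of rod cluster 0. Ndnf (0.864) and Pde7b (0.863) followed Gm43508 for Ednrb.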
